A study of Mus musculus with 18 samples.

Results

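The 10 genes described here regulate the passage from G1 to S phase through the retinoblastoma protein and the E2F transcription factors. They are the pocket protein genes Rb1, Rbl1 and Rbl2, the activator E2F genes E2f1, E2f2 and E2f3, the CDK inhibitor genes Cdkn2a and Cdkn2c, the cyclin gene Ccnd1, and Ezh2, the catalytic subunit of Polycomb repressive complex PRC2. They were chosen by name, as the rows of the deposited tables whose Ensembl gene ID carries one of these symbols, and are 10 of the 55469 gene IDs listed. All 10 passed the minimum mean in each of the 4 tables, so none was left out of a test.

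Total RNA of the ventral and lateral prostate lobes was sequenced from 18 male mice on a C56NL/6N background. Every mouse, controls included, was TRAMP +/-, carrying a transgene whose probasin promoter makes prostate epithelium express SV40 large T and small t antigen. WT-TRAMP mice were ELAC2+/+, KO-TRAMP mice, labelled ELAC2-/-, were homozygous for a floxed Elac2 allele whose exon 8 is removed by Pb-Cre, and A537T-TRAMP mice, labelled ELAC2A537T, were homozygous for the A537T change of ELAC2, a tRNA-processing nuclease, in every cell of the body. Mice were 10 or 30 weeks old, 3 of each line and age. Pb-Cre acts in prostate epithelium, so stroma, vessels and immune cells of KO-TRAMP lobes keep Elac2. The column headers of the tables carry only a library number: columns present in both tables of an age, 3 in each case, were read as WT-TRAMP, and the 3 remaining columns as the mutant line in the name of that table. At 10 weeks this made libraries 1 to 3 WT-TRAMP, libraries 7 to 9 KO-TRAMP and libraries 4 to 6 A537T-TRAMP. At 30 weeks libraries 10 to 12 were WT-TRAMP, libraries 16 to 18 KO-TRAMP and libraries 13 to 15 A537T-TRAMP.

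In a resting cell the pocket proteins hold E2F factors and keep genes of DNA synthesis off. Cyclin D1 with CDK4 or CDK6 starts to phosphorylate the pocket proteins and so frees E2F, and the INK4 proteins encoded by Cdkn2a and Cdkn2c block those kinases. Cdkn2a also encodes Arf, from another reading frame, which stabilises p53. Ezh2 is itself an E2F target gene and methylates histone H3 at repressed genes, the Cdkn2a locus among them. SV40 large T antigen binds and inactivates the pocket proteins, and TRAMP mice are known for epithelial hyperplasia that progresses to prostate cancer.

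The libraries held between 9380174 and 14830104 reads, recovered from the normalized counts. All 7 luminal epithelium markers were detected in every library, with a summed level of 1620 to 2838 reads when scaled to a total of 1000000 reads per library (rpm). Elac2 lay between 233 and 359 normalized counts and overlapped between WT-TRAMP and the mutant line in all 4 comparisons, although a whole-gene count also holds reads of the exons that Pb-Cre leaves in place. Libraries differed in their content of other cells. Libraries 17 and 18 (KO-TRAMP, 30 weeks) had the highest neuroendocrine signal, with summed levels of 10 marker genes up to 1643 rpm. Genes of seminal vesicle secretion, a gland that was cut away at dissection, took 9.03% of all reads in library 5 (A537T-TRAMP, 10 weeks), 5.44% in library 13, 4.35% in library 10 and less than these in the other libraries. In bulk tissue, fewer cells of a type and less RNA per cell cannot be told apart. Both sets of markers are given beside the genes they moved with.

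Of the 10 genes, 8 had a promoter window in RefSeq (build GRCm38.p6), from 250 bases before to 50 bases after an annotated transcription start. Rb1 and Ccnd1 were the other two. The windows were searched on both strands for the E2F words TTTCCCGC, TTTCGCGC, TTTGCCGC and TTTGGCGC, 4 different words of which no 2 matched the same letters in a member, and 5 of the 8 genes held a match, against 2.6% of all 27025 genes with a window and 2.26% of all 32851 windows. The 5 windows are shown because each holds a word of the kind E2F factors bind, given in capitals, 5′ to 3′ on the strand of the gene.
Rbl1, chr2:157204485-157204784, minus strand: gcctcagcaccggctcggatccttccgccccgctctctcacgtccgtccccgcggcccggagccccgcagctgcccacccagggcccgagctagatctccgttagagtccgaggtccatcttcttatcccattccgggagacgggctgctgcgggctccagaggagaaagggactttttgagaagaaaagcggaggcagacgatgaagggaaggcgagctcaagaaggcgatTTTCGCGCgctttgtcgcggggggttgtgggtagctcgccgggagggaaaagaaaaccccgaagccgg
E2f2, chr4:136172024-136172323, plus strand: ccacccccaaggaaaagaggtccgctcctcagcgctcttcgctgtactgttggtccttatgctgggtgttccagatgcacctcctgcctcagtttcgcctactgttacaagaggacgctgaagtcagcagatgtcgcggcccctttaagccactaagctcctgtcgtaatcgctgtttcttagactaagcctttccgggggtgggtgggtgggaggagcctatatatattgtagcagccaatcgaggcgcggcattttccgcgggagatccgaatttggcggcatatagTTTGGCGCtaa
E2f3, chr13:29986014-29986313, minus strand: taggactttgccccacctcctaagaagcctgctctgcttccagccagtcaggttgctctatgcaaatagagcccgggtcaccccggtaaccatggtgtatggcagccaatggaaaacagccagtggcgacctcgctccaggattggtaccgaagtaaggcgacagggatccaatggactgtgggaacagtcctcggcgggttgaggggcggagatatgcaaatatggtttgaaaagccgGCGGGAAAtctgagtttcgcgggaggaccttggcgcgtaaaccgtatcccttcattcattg
Cdkn2a, chr4:89294570-89294869, minus strand: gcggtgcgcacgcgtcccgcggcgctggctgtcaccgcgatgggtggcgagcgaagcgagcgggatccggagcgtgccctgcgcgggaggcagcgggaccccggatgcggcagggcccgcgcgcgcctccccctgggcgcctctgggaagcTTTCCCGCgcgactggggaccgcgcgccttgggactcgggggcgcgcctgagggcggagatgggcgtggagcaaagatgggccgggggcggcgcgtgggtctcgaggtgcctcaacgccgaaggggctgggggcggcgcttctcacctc
Ezh2, chr6:47594981-47595280, minus strand: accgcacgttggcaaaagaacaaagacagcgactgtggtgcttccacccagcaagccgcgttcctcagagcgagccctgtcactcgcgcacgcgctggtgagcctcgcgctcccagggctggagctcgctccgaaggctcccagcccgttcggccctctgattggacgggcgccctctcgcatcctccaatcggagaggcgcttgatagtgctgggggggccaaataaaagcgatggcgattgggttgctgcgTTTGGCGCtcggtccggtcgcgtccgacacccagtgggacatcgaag
The match began 18 bases before the start in Rbl1, 11 bases before it in E2f3 and 99 bases before it in Cdkn2a, and lay 39 bases after the start in E2f2 and 3 bases after it in Ezh2. In E2f3 the word was read on the opposite strand, as GCGGGAAA. The Cdkn2a window is that of the upstream start, and its second window, chr4:89282143-89282442, held none of these letters. The second windows of E2f2, chr4:136180532-136180831, and E2f3, chr13:29984342-29984641, held none either. The windows of E2f1, Cdkn2c and Ezh2 lay wholly inside their annotated genes. A match is a description of the sequence, and no match says only that these letters are not in the window.

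Levels between genes were compared per kilobase of exon, as the median over 18 libraries of rpm per kilobase. The 3 pocket protein genes were nearly level at 9.88 for Rb1, 9.79 for Rbl1 and 9.97 for Rbl2. Among the activator factors E2f1 was the highest at 6.44, followed by E2f3 at 3.80 and E2f2 at 2.05. Ezh2 stood at 9.54, Cdkn2c at 12.4, Cdkn2a at 11.1 and Ccnd1 at 4.80. These medians hide very different spreads. From the lowest to the highest library, Rbl1 varied 2.15-fold, E2f3 2.17-fold, Rbl2 2.23-fold, Ezh2 2.24-fold, E2f1 2.32-fold and Rb1 2.73-fold. Cdkn2c varied 3.86-fold, E2f2 14.9-fold, Ccnd1 63.1-fold and Cdkn2a 97.6-fold. The range of Cdkn2a ran from 0.346 rpm, only 4 reads, in library 5 to 33.8 rpm, 324 reads, in library 14. The plot of the level of each gene by library shows that the spread of these last 3 genes has 3 different shapes: Cdkn2a parts by age, E2f2 by 2 libraries of a single group, and Ccnd1 within groups at both ages.

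**Figure D1:**
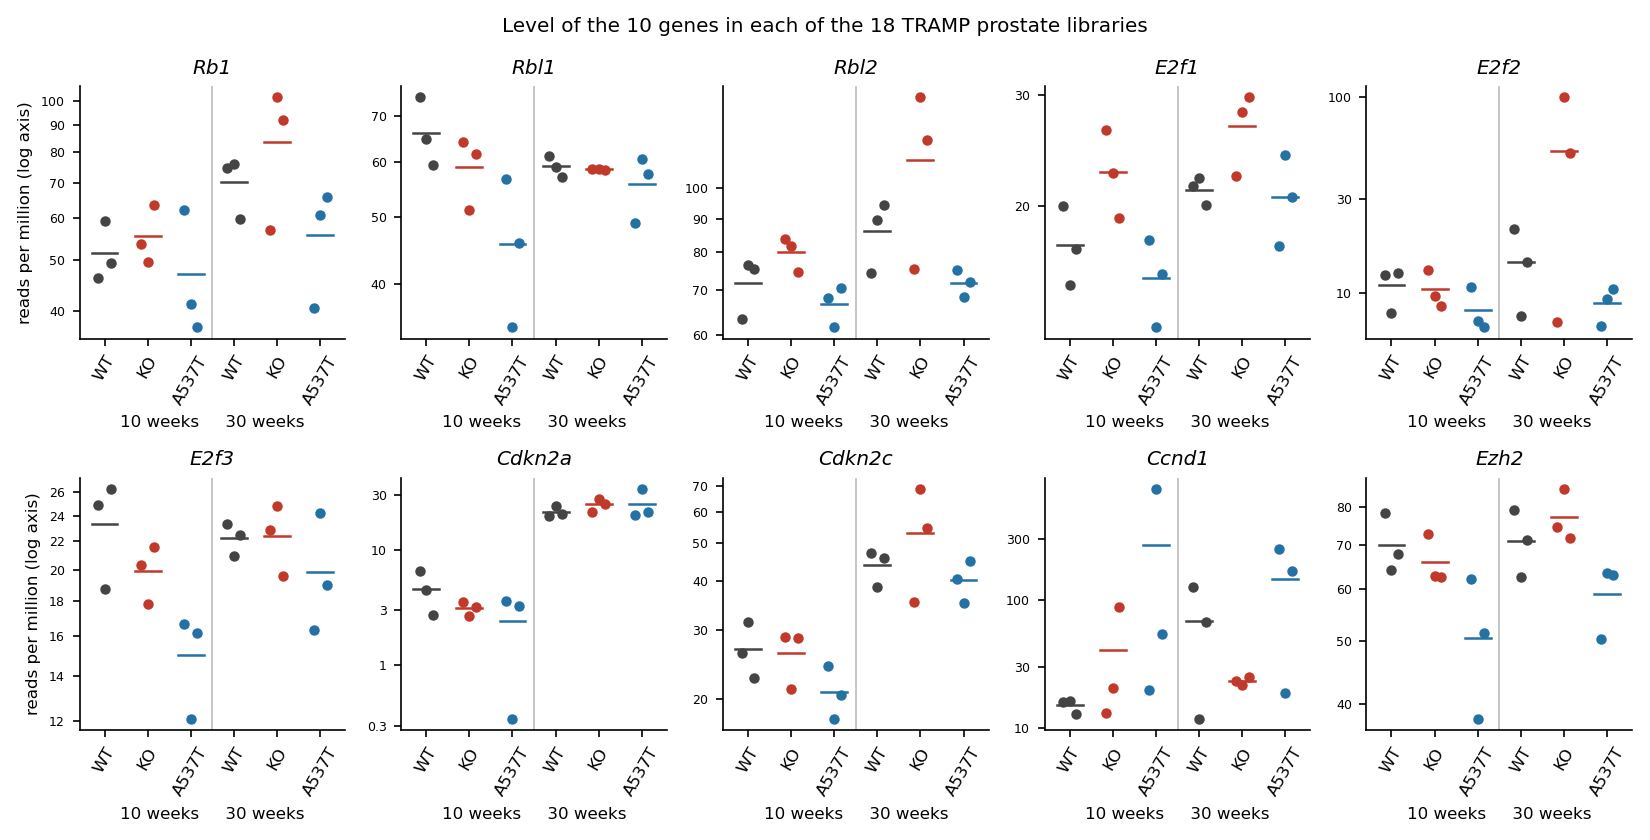
Each panel plots 1 gene as rpm (log axis, its own range) in the 18 libraries, by line and age, each point a library and each bar the mean of 3 libraries, with WT-TRAMP values from the tables of the KO-TRAMP comparisons. Cdkn2a lies between 0.346 and 6.57 at 10 weeks and between 19.5 and 33.8 at 30 weeks, and E2f2 exceeds 50 only in 2 KO-TRAMP libraries of 30 weeks.

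The mutant lines were set against WT-TRAMP mice of equal age to ask whether loss of Elac2 or the A537T change alters these regulators. None of the 10 genes passed the test in any comparison (limma on log2(normalized count + 1), adjusted p under 0.05 over all genes tested). At 10 weeks 0.0129% of all genes passed for KO-TRAMP and 0.00648% for A537T-TRAMP. At 30 weeks 0.213% passed for KO-TRAMP and 0% for A537T-TRAMP, so few calls were made for any gene in these sets of 3 against 3 libraries. edgeR and DESeq2 on the recovered reads also called 0 of the 10 genes in each comparison. In the same order, edgeR called 0%, 0%, 0.0888% and 0% of all genes and DESeq2 0.537%, 0.959%, 4.76% and 1.02%. Before adjustment, limma gave a p under 0.05 to 0 of the 10 genes in KO-TRAMP at 10 weeks, 3 in A537T-TRAMP at 10 weeks, and 0 in both lines at 30 weeks. In that order the count was 0, 4, 0 and 0 with edgeR, and 0, 4, 2 and 0 with DESeq2. The 3 were Rbl1, E2f3 and Ezh2, Ccnd1 was the fourth with both other tools, and E2f2 and Ccnd1 were the 2 of KO-TRAMP at 30 weeks. Over all genes, 6.64%, 7.89%, 13.5% and 7.21% had an unadjusted limma p under 0.05 in these 4 comparisons, 6.91%, 8.83%, 15.6% and 8.5% an unadjusted edgeR p and 6.82%, 10.3%, 18.4% and 8.24% an unadjusted DESeq2 p. Values below are the authors' normalized counts, comparable only within a table, and the log2 fold changes carry their standard errors (SE).

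**Figure D2:**
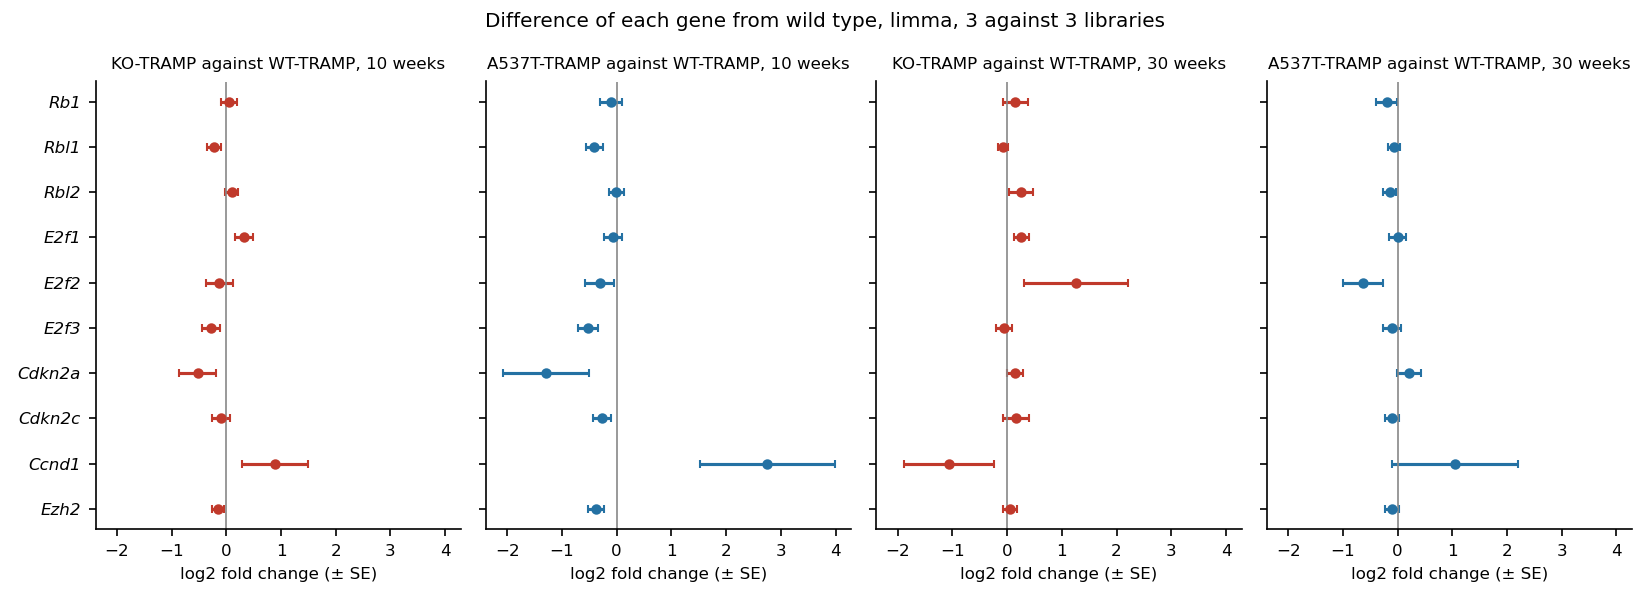
The log2 fold change of each gene against WT-TRAMP is plotted with its SE in the 4 comparisons, each of 3 against 3 libraries, on log2(normalized count + 1). The widest bars belong to Ccnd1, Cdkn2a and E2f2, and the points farthest from 0 are Ccnd1 at 2.75 and Cdkn2a at −1.30 in A537T-TRAMP at 10 weeks and E2f2 at 1.26 in KO-TRAMP at 30 weeks.

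Among the pocket proteins, Rbl1, which encodes p107, gave the clearest values. In the A537T-TRAMP comparison at 10 weeks Rbl1 was 744, 663 and 606 in WT-TRAMP and 585, 442 and 496 in A537T-TRAMP libraries 4, 5 and 6. All 3 mutant values were below all 3 control values. The log2 fold change was −0.41 (SE 0.15), with an unadjusted limma p of 0.0330 and an adjusted p of 0.600. In KO-TRAMP at 10 weeks Rbl1 was 708, 582 and 683 against 853, 759.9 and 698 in WT-TRAMP, where the groups overlapped and the fold change was −0.23 (SE 0.12, adjusted p 0.780). At 30 weeks Rbl1 was nearly constant, with all 6 values of the KO-TRAMP comparison between 633 and 700.5 and fold changes of −0.08 (SE 0.10) in KO-TRAMP and −0.06 (SE 0.11) in A537T-TRAMP.

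Rb1 and Rbl2, which encodes p130, showed no such gap at 10 weeks. Rb1 was 528, 694 and 578 in WT-TRAMP and 589.8, 564 and 704 in KO-TRAMP, and in the A537T-TRAMP comparison 492, 646 and 535 against 642, 526 and 404. The fold changes were 0.05 (SE 0.14) and −0.11 (SE 0.20), and the groups overlapped in both lines. Rbl2 gave 0.10 (SE 0.12) in KO-TRAMP and −0.01 (SE 0.14) in A537T-TRAMP.

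At 30 weeks the KO-TRAMP group was split for both genes. Rb1 was 854, 891 and 693 in WT-TRAMP and 658, 1099 and 1002 in KO-TRAMP libraries 16, 17 and 18. Rbl2 was 849, 1053 and 1095 in WT-TRAMP and 872, 1485 and 1288 in the same KO-TRAMP libraries. Libraries 17 and 18 were above every control for both genes and library 16 was not. The fold changes were 0.15 (SE 0.22, adjusted p 0.728) for Rb1 and 0.26 (SE 0.22, adjusted p 0.570) for Rbl2, and without libraries 17 and 18 they turned to −0.29 and −0.19. Every value without libraries 17 and 18 leaves library 16 alone against 3 controls and assumes that it varies as they do. In A537T-TRAMP the fold changes were −0.20 (SE 0.19) for Rb1 and −0.15 (SE 0.12) for Rbl2. Per kilobase, Rbl1 made up 21.8% and 24.0% of the 3 pocket protein transcripts in libraries 17 and 18 against a median of 32.9% over the 18 libraries, so Rb1 and Rbl2 held more of the family in these 2 libraries. Smooth muscle markers were above every control for 5 of 5 genes in library 17 and 3 of 5 in library 18, and below every control for 5 of 5 in library 16, with summed levels of 605.9 to 3049 rpm in KO-TRAMP and 1202 to 2095 rpm in WT-TRAMP and none at 0. Fibroblast markers were above every control for 6 of 6 genes in all 3 KO-TRAMP libraries (1554 to 1944 rpm against 364 to 419 rpm, none at 0). Neuroendocrine markers were above every control for 0, 9 and 9 of 10 genes in libraries 16, 17 and 18, and cycling cell markers for 0, 10 and 9 of 10. The part of these markers in the Rb1 and Rbl2 values was not tested.

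E2f2 had the widest spread among the activator factors. In the KO-TRAMP comparison at 30 weeks E2f2 was 242, 89.3 and 168 in the controls, libraries 10, 11 and 12. It was 82.3, 1076 and 562 in libraries 16, 17 and 18 of KO-TRAMP. Libraries 17 and 18 were above every control and library 16 was below every control, so the groups overlapped. This gave a log2 fold change of 1.26 (SE 0.96, adjusted p 0.526). It was 2.33 without library 16, with an adjusted p of 0.0328, 0.49 without library 17, and −0.89 without libraries 17 and 18 (adjusted p 0.776), and its adjusted p ran from 0.0328 to 0.904 over all alternatives. Without library 16, 3064 genes passed the test over the whole table, against 36 with all libraries.

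The neuroendocrine markers moved with E2f2 in KO-TRAMP and WT-TRAMP at 30 weeks, but not in every group. Their mean log2(normalized count + 1) was 10.0 in library 17 and 9.39 in library 18, and 1.68 in library 16, and 9 of the 10 markers in each of libraries 17 and 18 were above every WT-TRAMP library. Among WT-TRAMP libraries of 30 weeks the same order appeared, with a marker mean of 7.57 and 21.2 rpm of E2f2 in library 10, 6.57 and 14.4 rpm in library 12, and 1.48 and 7.60 rpm in library 11. In A537T-TRAMP of 30 weeks the order was the reverse. Marker means of 4.16, 3.94 and 2.48 in libraries 13, 14 and 15 stood beside 6.77, 9.28 and 10.4 rpm of E2f2. In KO-TRAMP of 10 weeks library 8 had the highest marker mean, 4.80, with 9.64 rpm. Library 7 had the lowest mean of that group, 1.65, with 13.1 rpm. The summed markers ran from 28.6 to 1643 rpm in KO-TRAMP and from 28.8 to 319 rpm in WT-TRAMP at 30 weeks. The defining markers Scg2, Scg3 and Snap25 were at 0 in at least 1 library of each of these 2 groups, Chgb in KO-TRAMP, and Chga and Insm1 in WT-TRAMP. The cycling cell markers moved in parallel, with 10 of 10 above every control in library 17, 9 of 10 in library 18 and 0 of 10 in library 16. Among WT-TRAMP libraries of 30 weeks they took 0.115%, 0.0776% and 0.0505% of reads in libraries 10, 12 and 11, the order of E2f2. In A537T-TRAMP of 30 weeks they took 0.0496%, 0.0963% and 0.0847% in libraries 13, 14 and 15. Library 13 was lowest in both, but libraries 14 and 15 were in reverse order. The smooth muscle markers given with Rb1 and Rbl2 parted these KO-TRAMP libraries the same way. The part of these marker sets in the E2f2 values was not tested.

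**Figure D3:**
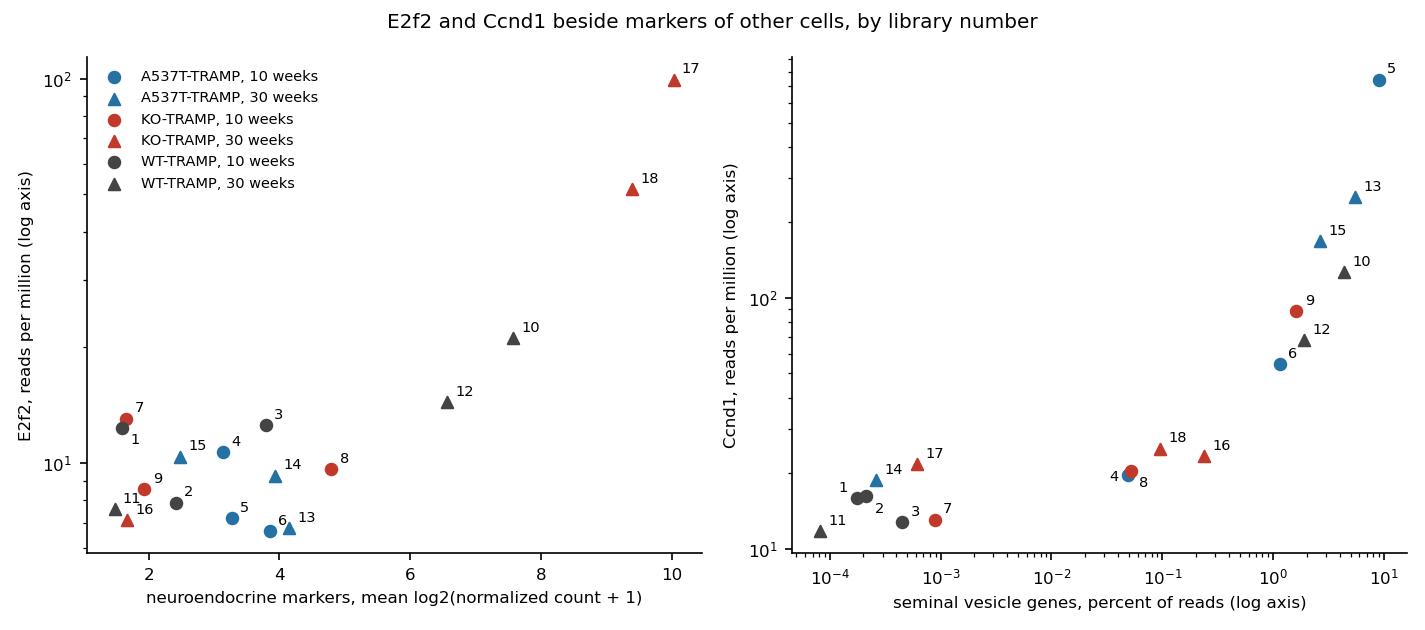
On the left, E2f2 in rpm (log axis) is plotted against the mean log2(normalized count + 1) of 10 neuroendocrine markers, and on the right Ccnd1 in rpm (log axis) against the percent of reads in 6 seminal vesicle genes (log axis), each point a library labelled with its number. E2f2 is highest in libraries 17, 18, 10 and 12, which also have the highest marker means, and Ccnd1 is above 50 rpm in the 7 libraries with more than 1 percent of reads in seminal vesicle genes; the marker means on the left come from tables normalized separately.

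In the other comparisons E2f2 stayed low. At 10 weeks it was 142, 92.5 and 148 in WT-TRAMP and 144, 109.7 and 94.6 in KO-TRAMP, a fold change of −0.12 (SE 0.24). For A537T-TRAMP it stood at 109.9, 91.7 and 72.2 against 127, 82.9 and 132 at 10 weeks (−0.31, SE 0.26), and 77.8, 106 and 115 against 241, 87.9 and 166 at 30 weeks (−0.63, SE 0.36, adjusted p 0.748). All of these groups overlapped.

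E2f3 was the member with the smallest unadjusted p with limma, while with edgeR and DESeq2 it was Ccnd1. For A537T-TRAMP of 10 weeks it stood at 172, 155 and 175, below all of the WT-TRAMP values of 256, 198 and 276. Its log2 fold change of −0.53 (SE 0.18) had an unadjusted limma p of 0.0204 and an adjusted p of 0.600. In KO-TRAMP at 10 weeks it was 224, 203 and 239 against 285, 220.0 and 308, with overlap and a fold change of −0.28 (SE 0.16, adjusted p 0.797). At 30 weeks the fold changes were −0.06 (SE 0.14) in KO-TRAMP and −0.10 (SE 0.16) in A537T-TRAMP, both inside the spread of the libraries.

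E2f1, the factor that can also drive apoptosis, had positive fold changes in KO-TRAMP at both ages that did not pass the test. It was 290.4, 257 and 211 in KO-TRAMP against 229, 175 and 200.4 in WT-TRAMP at 10 weeks, a fold change of 0.32 (SE 0.17, adjusted p 0.770). At 30 weeks it was 258, 305 and 324 against 245, 260.1 and 233, a fold change of 0.26 (SE 0.14, adjusted p 0.423). A single KO-TRAMP library lay within the control range at each age. In A537T-TRAMP the fold changes were −0.07 (SE 0.17) at 10 weeks and 0.00 (SE 0.15) at 30 weeks.

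As shares of the summed E2f1, E2f2 and E2f3 levels per kilobase, E2f1 had a median of 51.9%, E2f3 of 30.6% and E2f2 of 17.8% over the 18 libraries. E2f2 reached 60.2% in library 17 and 44.8% in library 18, and it was 11.4% in library 16 of the same group. E2f3 was then 13.5% and 15.3% in libraries 17 and 18. Its own level was 24.7 rpm in library 17 and 19.6 rpm in library 18, against 20.9 to 23.3 rpm in WT-TRAMP of that age, so library 17 was above and library 18 below every control.

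**Figure D4:**
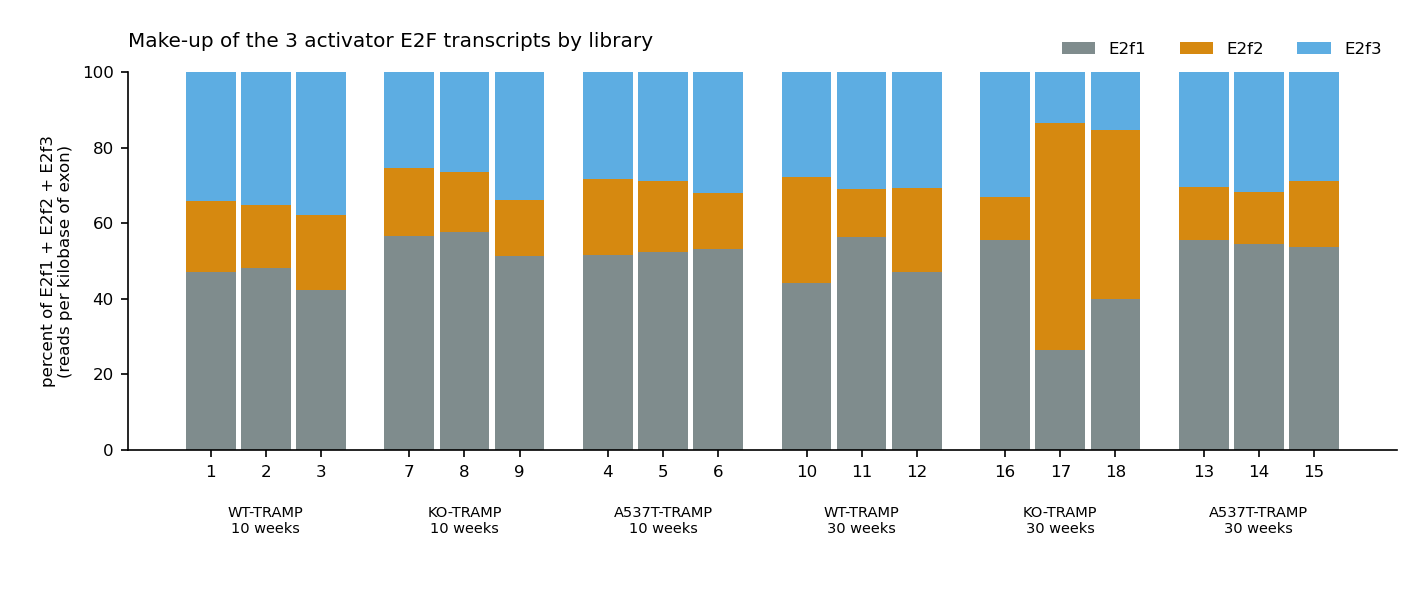
Stacked bars give the percent of the summed reads per kilobase of exon held by E2f1, E2f2 and E2f3 in each library, grouped by line and age, with WT-TRAMP from the tables of the KO-TRAMP comparisons. E2f2 is 60.2% in library 17 and 44.8% in library 18 and its median over the 18 libraries is 17.8%.

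Cdkn2a, which encodes INK4A and Arf, parted by age. Its level was between 0.346 and 6.57 rpm in the 9 libraries of 10 weeks and between 19.5 and 33.8 rpm in the 9 of 30 weeks, with no overlap. The means at 10 and 30 weeks were 4.59 ± 1.93 and 21.4 ± 2.31 rpm in WT-TRAMP (SD, n = 3), 3.14 ± 0.430 and 24.8 ± 3.26 rpm in KO-TRAMP, and 2.42 ± 1.80 and 25.0 ± 7.59 rpm in A537T-TRAMP. The ratio of the means was 4.66, 7.90 and 10.3 in these lines. Cdkn2c, which encodes INK4C, was the other gene without overlap, at 17.8 to 31.4 rpm against 35.2 to 68.8 rpm. Its ratio of means was 1.64 in WT-TRAMP, 2.02 in KO-TRAMP and 1.93 in A537T-TRAMP.

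Of all 16346 genes compared in this way, 0.942% were higher at 30 weeks without overlap and 0.0184% lower, and the median ratio was 1.11. The overall ratio of Cdkn2a, 7.02, was exceeded by 437 of these genes and that of Cdkn2c, 1.86, by 2120. The ages come from tables normalized separately and were set side by side in rpm, as a description with no test. Cdkn2a and Cdkn2c were 2 of the 10 members, all on the higher side. The others overlapped between the ages, with ratios of 1.36 for Rb1, 1.24 for E2f1, 1.23 for Rbl2, 1.11 for both Ezh2 and E2f3 and 1.02 for Rbl1. E2f2 and Ccnd1 also overlapped, and their ratios rested on single libraries. That of E2f2 was 2.57, and 1.63 without library 17, with 1.32 in WT-TRAMP, 5.07 in KO-TRAMP and 1.08 in A537T-TRAMP. That of Ccnd1 was 0.728 and turned to 2.65 without library 5, with 4.60 in WT-TRAMP, 0.576 in KO-TRAMP and 0.538 in A537T-TRAMP. The ratio of Cdkn2a stayed between 6.31 and 7.95 and that of Cdkn2c between 1.74 and 1.92 when any single library was left out. Macrophage markers, none of them at 0, moved the same way as Cdkn2a, with summed levels of 47.2 to 100.04 rpm over the libraries of 10 weeks and 78.2 to 263 rpm over those of 30 weeks, ranges that overlap where those of Cdkn2a do not. B cell markers moved in the same direction without overlap, at 0 to 4.32e-05% of reads at 10 weeks and 9.44e-05% to 4.27e-04% at 30 weeks. These are low counts, and no marker of that list averaged above 9.63 normalized counts in any comparison. Fibroblast, endothelium, adipose tissue and smooth muscle markers also rose, with overlap. Fibroblast sums were 257 to 594 rpm at 10 weeks and 364 to 1944 rpm at 30 weeks, and endothelium sums 6.66 to 25.4 rpm and 18.1 to 63.9 rpm, with no marker of either list at 0. Adipose tissue sums were 0.692 to 4.89 rpm and 1.88 to 80.8 rpm, with Adipoq and Plin1 at 0 in at least 1 library of each age. Smooth muscle sums were 365 to 2022 rpm and 605.9 to 3049 rpm, with none at 0. Neuroendocrine sums were 7.64 to 103 rpm and 28.1 to 1643 rpm, highest in libraries 17 and 18, with several markers at 0 at each age. The part of these markers in the Cdkn2a and Cdkn2c values was not tested.

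Within an age the lines overlapped in Cdkn2a. At 10 weeks its normalized counts were 75.2, 52.5 and 31.9 in WT-TRAMP and 38.7, 30.4 and 35.8 in KO-TRAMP, a fold change of −0.52 (SE 0.34, adjusted p 0.819). In A537T-TRAMP they were 37.4, 4.42 and 35.5 against 70.7, 49.5 and 30.3, a fold change of −1.30 (SE 0.79, adjusted p 0.614). Library 5 alone held the low value, from 4 reads, and without it the fold change was −0.37. At 30 weeks they were 247, 301 and 274 in KO-TRAMP against 223, 281 and 239 (0.15, SE 0.15), and 232, 386 and 233 in A537T-TRAMP against 217, 273 and 231 (0.20, SE 0.22).

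Cdkn2c at 30 weeks was again split within KO-TRAMP. It was 409, 744 and 596 in libraries 16, 17 and 18 against 539, 453 and 532 in WT-TRAMP, a fold change of 0.16 (SE 0.23, adjusted p 0.728) that turned to −0.31 without libraries 17 and 18. These are the libraries with the neuroendocrine, cycling cell and smooth muscle markers given above, whose part in the Cdkn2c values was not tested. At 10 weeks Cdkn2c was 316, 241 and 318 in KO-TRAMP against 301, 369 and 266 (−0.10, SE 0.17), and 249.9, 228 and 222 in A537T-TRAMP against 274, 336 and 241 (−0.27, SE 0.17, adjusted p 0.619). Both pairs of groups overlapped, as did A537T-TRAMP and WT-TRAMP at 30 weeks, with a fold change of −0.10 (SE 0.13).

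Ccnd1, the partner of CDK4 and CDK6, varied most within groups. In libraries 4, 5 and 6, A537T-TRAMP of 10 weeks, Ccnd1 counts were 203, 9496 and 588 against 162, 170.4 and 133 in WT-TRAMP. All 3 mutant values were above all controls, and library 5 was far above the rest. Its log2 fold change of 2.75 (SE 1.23) had an adjusted p of 0.600. With edgeR and DESeq2 it was 4.48 and 4.47, with adjusted p-values of 0.561 and 0.0849, and 0.0849 to 0.997 over all alternatives. It was 1.16 without library 5 and 0.39 without libraries 5 and 6. At this comparison 6.92% of all genes lay higher without overlap, and 6.53% lower.

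The other comparisons of Ccnd1 had the same uneven pattern. In KO-TRAMP at 10 weeks Ccnd1 was 144, 233 and 978 against 182, 190.0 and 149.8 (0.89, SE 0.60, adjusted p 0.830), with library 9 alone above the rest, and 0.08 without that library. At 30 weeks it was 1449, 138 and 785 in WT-TRAMP and 271, 235 and 273 in KO-TRAMP (−1.06, SE 0.82, adjusted p 0.534). At 30 weeks A537T-TRAMP had 2903, 215 and 1858 against 1365, 129 and 734 (1.05, SE 1.15, adjusted p 0.866). Leaving out library 10 moved the KO-TRAMP value to −0.35, and leaving out library 11 to −2.04. The A537T-TRAMP value moved to 0.07 when library 11 was left out and to 2.20 when library 14 was. At this age the controls themselves ran from 11.8 to 127 rpm.

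Seminal vesicle genes moved with Ccnd1. The 7 libraries with the most Ccnd1 were libraries 5, 13, 15, 10, 9, 12 and 6, at 743, 252, 169, 127, 88.4, 67.6 and 54.3 rpm. Their reads in the 6 seminal vesicle genes were 9.03%, 5.44%, 2.65%, 4.35%, 1.62%, 1.90% and 1.15% of the total. In the other 11 libraries Ccnd1 lay between 11.8 and 25.0 rpm and the seminal vesicle share between 8.17e-05% and 0.240%. The summed seminal vesicle genes ran from 1.76 to 4.50 rpm in WT-TRAMP at 10 weeks, with Svs3a and Svs6 at 0 in at least 1 library, and from 487 to 90260 rpm in A537T-TRAMP at that age, where 6 of 6 were above every control in each library. In KO-TRAMP at 10 weeks 4 of 6 were above every control in library 7 and 6 of 6 in libraries 8 and 9. The part of these cells in the Ccnd1 values was not tested.

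Ezh2 had the same pattern as Rbl1 and E2f3 at 10 weeks. For A537T-TRAMP it stood at 639, 486 and 557, below all WT-TRAMP values of 802, 671 and 708. The log2 fold change was −0.38 (SE 0.15), with an unadjusted limma p of 0.0376 and an adjusted p of 0.600. In KO-TRAMP it was 800.2, 714 and 692 against 897, 749.9 and 796 (−0.15, SE 0.11, adjusted p 0.850), with overlap. At 30 weeks the fold changes were 0.06 (SE 0.12) in KO-TRAMP and −0.10 (SE 0.13) in A537T-TRAMP.

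Rbl1, E2f3 and Ezh2 were the 3 members below every control in A537T-TRAMP at 10 weeks, where 2.82% of all genes had a lower value at an unadjusted p under 0.05 and 6.53% lay lower without overlap. Their fold changes without libraries 5 and 6, which leaves library 4 alone against 3 controls and assumes that it varies as they do, were −0.19, −0.49 and −0.18, with adjusted p-values of 0.997. Over all alternatives the adjusted p ran from 0.147 for Rbl1, 0.193 for E2f3 and 0.155 for Ezh2 up to that value. The cycling cell markers were below every control for 10 of 10 genes in library 5 and 9 of 10 in library 6, and for 1 of 10 in library 4. Their summed level was 469 to 991 rpm in A537T-TRAMP and 660.0 to 999 rpm in WT-TRAMP at 10 weeks, with none at 0. Smooth muscle markers were above every control for 5 of 5 genes in each of the 3 A537T-TRAMP libraries, with summed levels of 934.7 to 2022 rpm against 365 to 599 rpm in WT-TRAMP and none at 0. Fibroblast markers were above every control for 4, 5 and 4 of 6 genes in libraries 4, 5 and 6, with sums of 469 to 594 rpm against 257 to 404 rpm. Luminal markers were below every control for 2, 4 and 4 of 7 genes and above for 2 of 7 in each, with sums of 1620 to 2449 rpm against 2275 to 2553 rpm, and none of either list was at 0. Seminal vesicle reads, given with Ccnd1, were likewise above every control in all 3. The part of these markers in the 3 values was not tested. Each of these 3 genes had an E2F word in a promoter window shown above. So did E2f2 and Cdkn2a, which overlapped with WT-TRAMP in this comparison. A link between the words and the values was not tested.

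The pathway around the 10 genes was described by 6 further lists with 55 genes, all of them tested. With limma 0 of the 55 passed in any of the 4 comparisons, while an unadjusted p under 0.05 was given to 2 and 4 of them at 10 weeks, in KO-TRAMP and then A537T-TRAMP, and to 4 and 1 at 30 weeks. The shares of all genes at that p are the 6.64%, 7.89%, 13.5% and 7.21% given above, so these counts are no more than other genes reached. The smallest adjusted p in any list was 0.338, and edgeR and DESeq2 were not counted over the lists. The largest list held 21 E2F target genes of S phase. In A537T-TRAMP at 10 weeks 19 of 21 had a negative fold change, with a median of −0.33 against −0.01 for all genes tested and 1 of 21 at an unadjusted p under 0.05.  In KO-TRAMP at 30 weeks 16 of 21 were positive with a median of 0.32, and in KO-TRAMP at 10 weeks 18 of 21 with a median of only 0.07. In A537T-TRAMP at 30 weeks 14 of 21 were positive with a median of 0.06. Of all genes tested, 48.9% in KO-TRAMP and 49.1% in A537T-TRAMP were positive at 10 weeks. At 30 weeks 50.9% and 50.05% were. All 21 genes were read in the same libraries, so these counts are not of separate observations. The summed level of the 21 genes was 850 rpm in library 5 and 1237 rpm in library 6, against 1466 to 1882 rpm in the WT-TRAMP libraries of that table and 1741 rpm in library 4. It was 2754 rpm in library 17 and 2382 rpm in library 18, against 1820 rpm in library 16 and 1730 to 1840 rpm in WT-TRAMP. Libraries 5, 6, 17 and 18 also stood apart in the cycling cell markers, but not alone. Library 8 (KO-TRAMP, 10 weeks) had 9 of 10 of these markers below every control, as many as library 6. Libraries 9 and 13 had 5 of 10 below every control and library 16 had 4 of 10. The part of the cycling cell markers in these sums was not tested.

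Examples from these lists were taken by the smallest p over the 4 comparisons. Among the S phase targets they included Mcm6, a subunit of the replicative helicase, in A537T-TRAMP at 10 weeks (−0.58, adjusted p 0.600). In KO-TRAMP at 30 weeks they were Dnmt1, the maintenance DNA methyltransferase (0.35, adjusted p 0.368), and Pcna, the replication clamp (0.45, adjusted p 0.369). Of the other E2F and DP factors, the repressor E2f7 had a fold change of 0.69 (SE 0.18) in KO-TRAMP at 10 weeks, with an unadjusted limma p of 0.00482 and an adjusted p of 0.695. Its fellow repressor E2f8 was at −0.49 in A537T-TRAMP at 10 weeks (adjusted p 0.600).

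Of the DREAM and MuvB list, Lin9, a subunit of the MuvB core that represses cell cycle genes together with p107 or p130, was at 0.50 in KO-TRAMP at 30 weeks (adjusted p 0.338). Mybl2, whose product B-Myb binds the same core to activate such genes, was at −1.12 in A537T-TRAMP at 30 weeks (adjusted p 0.703). Among the cyclins and CDKs, Ccnd2 was at 0.79 in A537T-TRAMP at 10 weeks (adjusted p 0.600), Cdk6 at −0.64 in A537T-TRAMP at 30 weeks (adjusted p 0.666) and Ccne1, which encodes cyclin E1, at 0.51 in KO-TRAMP at 30 weeks (adjusted p 0.364). All 5 CDK inhibitors of the list had positive fold changes in KO-TRAMP at 30 weeks, with a median of 0.76. Cdkn2b was at 0.84 (SE 0.34, adjusted p 0.366) and Cdkn2d at 1.06 (SE 0.77, adjusted p 0.517). In A537T-TRAMP at that age all 5 had negative ones, with a median of −0.15. Of all genes tested at 30 weeks, 50.9% had a positive fold change in KO-TRAMP and 50.05% in A537T-TRAMP. Cdkn1a, the p53 target p21, was at 1.02 in A537T-TRAMP at 10 weeks (adjusted p 0.600). Of the 8 PRC2 partners, the one with the smallest p was Jarid2, at −0.24 in KO-TRAMP at 10 weeks (adjusted p 0.767).

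Whether a line differed from WT-TRAMP by another amount at 30 weeks than at 10 weeks was asked with an interaction term, fitted to 12 libraries per line. With limma, 0 of 10 members passed for either line at an adjusted p under 0.05, which 0% of all genes reached in both lines, and 0 of 10 had an unadjusted p under 0.05, against 13.1% of all genes for KO-TRAMP and 6.36% for A537T-TRAMP. The interaction was not run with edgeR or DESeq2. For E2f2 in KO-TRAMP the difference of the log2 fold changes was 1.38 (SE 1.05, adjusted p 0.559), and it was 2.46 without library 16 (adjusted p 0.0220, with 0.0220 to 0.853 over all alternatives). For Ccnd1 it was −1.94 (SE 1.13, adjusted p 0.461) in KO-TRAMP, and −1.14 without library 9. In A537T-TRAMP it was −1.70 (SE 1.91, adjusted p 0.792), with −0.10 without library 5 and −2.88 without library 4. For Cdkn2a it was 0.66 (SE 0.37, adjusted p 0.452) in KO-TRAMP, and 0.38 without library 1. In A537T-TRAMP it was 1.50 (SE 0.88, adjusted p 0.721), and 0.57 without library 5.

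The members were also compared with each other and with 12599 well-measured genes over the 18 libraries, by Pearson's r on log2(rpm + 0.1). The libraries share lines, ages and tissue make-up, so r is a description of this set and has no p. The most alike pairs of members were Cdkn2a with Cdkn2c (r = 0.870), E2f3 with Ezh2 (0.861), Rbl1 with Ezh2 (0.845), Rbl2 with E2f2 (0.813) and Rbl1 with E2f3 (0.812). The lowest was Rbl1 with Ccnd1, at −0.672. The genes most like Rb1 were Dmtf1 (0.908), Mis18a (0.892) and March8 (0.879), and those most like E2f1 were Rif1 (0.928), Shtn1 (0.909) and Ctps2 (0.897). Ccar2 (0.932), Hnrnpul1 (0.911) and Kctd20 (0.909) were most like Ezh2. For Cdkn2a they were Ifi204 (0.930), Itgb2 (0.919) and Ifi207 (0.919), of which Itgb2 encodes the beta chain of leukocyte integrins and the other two are interferon-induced genes.

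The same ranking was added for E2f2 and Ccnd1 after their values were seen. Hmgn2 (0.983), Suv39h1 (0.963) and Acot7 (0.962) were most like E2f2, whose range is set by libraries 17 and 18. Nr4a3 (0.964), Cd52 (0.961) and Elf5 (0.961) were most like Ccnd1, whose highest values lay in the libraries with the largest shares of seminal vesicle reads.

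The positions of the genes bear on how far their counts are their own. On GRCm38 the pocket protein genes span chr14:73183673-73325822 (Rb1), chr2:157145893-157204534 (Rbl1) and chr8:91070057-91123844 (Rbl2). The E2F genes span chr2:154559407-154569892 (E2f1), chr4:136172394-136196057 (E2f2) and chr13:29906575-29986063 (E2f3), so the annotated gene of E2f2 begins downstream of the RefSeq window shown. Cdkn2a and Cdkn2c share chromosome 4 with E2f2, at chr4:89274471-89294653 and chr4:109660876-109667189, and Ccnd1 and Ezh2 span chr7:144929931-144939925 and chr6:47530139-47595341. Rbl2 and E2f2 lie on the plus strand and the other 8 genes on the minus strand. No exon of a member overlapped an exon of another gene on its own strand. Exons of Rb1, Rbl2, Ccnd1 and Ezh2 overlapped exons of genes on the other strand, which the authors' strand-aware counting keeps apart. At most 1.18% of a member's words of 31 bases occurred in any single other gene, the value of E2f1, so no member had a near-identical copy. Cdkn2a was counted as a whole gene, and its INK4A and Arf transcripts were not analysed separately here.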

How the data were processed

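The authors removed adapters (Trim Galore 0.4.1, cutadapt 1.18), aligned reads with STAR 2.7.3a to mouse build GRCm38.p6, quantified genes with Salmon in its strand-aware mode and scaled the counts with DESeq2 1.26, separately in 4 tables of 6 libraries. The values deposited are therefore a normalized count signal, not raw counts. The other deposited tables hold the authors' own fold changes and s-values and were not used. Every value was a whole multiple of a step per library (100% within 0.01 of a whole read), and the recovered reads gave the depth and the levels, scaled to a total of 1000000 reads (rpm). They are estimates made within a table and not raw reads, since a WT-TRAMP library had the same value for only 30.9% to 37.6% of genes in its 2 tables. The deposited columns carry library numbers and no group, so columns shared by both tables of an age were read as WT-TRAMP. The tables held 0 columns of other samples. Gene names came from the GENCODE annotation of the same build, for 55107 of 55469 IDs.

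Within a table, mutant and WT-TRAMP libraries were compared by limma 3.58.1 (R 4.3.3) with a trended prior on log2(normalized count + 1), for genes with a mean of at least 10, with Benjamini-Hochberg adjustment over all genes tested and 0.05 as the threshold. A change between ages was tested as a difference of both contrasts. Alternatives were edgeR 4.0.16 and DESeq2 1.42.0 on the recovered reads, another pseudocount, another minimum, another scaling and leaving out libraries. The steps were run on simulated data with a single spread setting for all genes and no differences in tissue make-up. That run does not show how the tests behave on these libraries. The precision rests on 3 mice per group. Each limma p-value sets a difference between groups against the spread of their libraries, moderated over all genes. The 10 members were all named, with up to 4 genes of each pathway list by smallest p. Some listed genes are not reported by name here. The members and lists were chosen with earlier results of these data known. Python 3.11.15 and pandas 2.3.3 were used for the summaries. Transcripts of Elac2 around exon 8 were not analysed here.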

Additional observations from a re-analysis of the deposited data

How the results depend on the processing

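The number of genes called moved with the tool and with single libraries. In KO-TRAMP at 10 weeks limma called 2 genes, against 0 with a minimum mean of 50, 0 with edgeR, 83 with DESeq2 and 1 to 9 when a library was left out. In A537T-TRAMP at 10 weeks it called 1, against 0 with a minimum mean of 50, 0 with edgeR, 148 with DESeq2, 0 without libraries 5 and 6, and 0 to 65 when a library was left out. In KO-TRAMP at 30 weeks it called 36, against 15 with edgeR, 805 with DESeq2, 16 without libraries 17 and 18, and 0 to 3064 when a library was left out, the last without library 16. For A537T-TRAMP of 30 weeks the count was 0, against 166 with DESeq2 and 0 to 145 when a library was left out. For the difference between ages it called 0 in both lines, against 1 in KO-TRAMP with a pseudocount of 4, 1 with no minimum, and 0 to 1944 and 0 to 20 when a library was left out in KO-TRAMP and A537T-TRAMP. Members called stayed at 0 except without library 16, where 0 to 1 was called, E2f2, in KO-TRAMP at 30 weeks and in its difference between ages. The causes were not tested.

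Leaving out both libraries 5 and 6, or both 17 and 18, was chosen after seeing the data, as was leaving out libraries from the ratios of the ages. Without libraries 5 and 6 the A537T-TRAMP fold changes at 10 weeks turned to 0.21 for Rb1 and 0.014 for E2f1, and with edgeR that of Rbl2 turned to 0.0033. Without libraries 17 and 18 the KO-TRAMP fold changes at 30 weeks turned to −0.29 for Rb1, −0.19 for Rbl2, −0.89 for E2f2, 0.038 for E2f3 and −0.31 for Cdkn2c. When single libraries were left out, 446 of the members' fold changes kept their direction and their side of the threshold, 2 passed it and 32 turned. The ranges of those that turned were as follows in KO-TRAMP at 10 weeks: −0.047 to 0.16 for Rb1, −0.34 to 0.012 for E2f2 and −0.20 to 0.037 for Cdkn2c. In A537T-TRAMP at 10 weeks they were −0.27 to 0.069 for Rb1, −0.11 to 0.047 for Rbl2 and −0.16 to 0.026 for E2f1. In KO-TRAMP at 30 weeks they were −0.12 to 0.046 for E2f3, −0.036 to 0.39 for Cdkn2c and −0.021 to 0.13 for Ezh2. In A537T-TRAMP at 30 weeks they were −0.31 to 0.0051 for Rb1, −0.13 to 0.021 for Rbl1, −0.12 to 0.11 for E2f1, −0.26 to 0.018 for E2f3 and −0.041 to 0.33 for Cdkn2a. The difference between ages ran from −0.040 to 0.33 for Rb1, −0.0052 to 0.38 for Rbl2 and −0.19 to 0.043 for E2f1 in KO-TRAMP, and from −0.27 to 0.11 for Rb1, −0.054 to 0.18 for E2f1 and −0.71 to 0.011 for E2f2 in A537T-TRAMP. Under the other settings 310 of the members' values kept their direction and side and 8 turned.

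With 3 libraries a group, even a fold change well above its SE did not pass the test. E2f3 in A537T-TRAMP at 10 weeks was at −0.53 (SE 0.18, limma adjusted p 0.600). No paired analysis was possible because the deposited columns carry no replicate numbers.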
